A study of Mus musculus with 80 samples.

Results

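The histone mark H3K27me3 was compared between fibroblasts of the pseudopregnant mouse uterus on GD5.5, taken after mating to a vasectomized male, and fibroblasts of the uterus on GD0.5, taken after mating to a B6 male. GD is the gestation day. Both groups were B6CBAF1/J females, a cross of 2 inbred strains, with no genetic change named in the labels. The comparison rests on 6 of the 80 samples of the series, 3 per group, and on 2 of its 16 deposited peak lists, since the 3 samples of a group were pooled into 1 list. A mating to a vasectomized male brings no embryos, so the comparison asks how the mark differs after 5 days of pseudopregnancy. Another pair of B6CBAF1/J lists is shown beside it, each pooled from 3 samples. One comes from inter-implantation tissue (IIS) on GD5.5 after mating to a B6 male, called natural mating here, and the other from the uterus of non-pregnant females treated with progesterone for 3 days. Per the labels, myometrium and endometrium were digested together and fibroblasts were purified with magnetic beads. CUT&RUN, in which an antibody guides a nuclease to the marked chromatin, was then run with an H3K27me3 antibody.

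H3K27me3 is trimethylation of lysine 27 of histone H3. It is laid down by Polycomb repressive complex 2, whose catalytic subunit is Ezh2 or Ezh1, and removed by the demethylases Kdm6a and Kdm6b. Genes covered by broad domains of the mark are as a rule silent or nearly so. In the mouse a sterile mating keeps the corpora lutea secreting progesterone, so that the uterus passes through the early hormonal steps of pregnancy without a conceptus.

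The 2 lists were near equal in total length. The GD0.5 list held 167482 peaks that covered 704 Mb of chromosomes 1 to 19 and X, and the GD5.5xVAS list held 146600 peaks that covered 699 Mb, a log2 ratio of -0.01. They shared 560 Mb, which was 80.1% of the GD5.5xVAS length and 79.6% of the GD0.5 length. The peaks were weak. The authors' fold over background had a median of 1.09 in both lists, and the authors' −log10 p had a median of 0.577 in GD0.5 and 0.585 in GD5.5xVAS. How deeply the libraries were sequenced is not given in the labels or files. With 1 pooled list per side there is no spread between samples and no test, so each difference below has no replicate check and a size limit stands in for a call.

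Stronger peaks overlapped the other list more often than weak ones. Of all GD5.5xVAS peaks, 74.6% overlapped a GD0.5 peak by at least 1 base, and of all GD0.5 peaks 69.3% overlapped a GD5.5xVAS peak. With the GD5.5xVAS list divided into 10 equal parts by −log10 p, the share was 49.6% in the weakest part and 98.0% in the strongest. Peaks that reached a −log10 q of 2 numbered 908 in GD5.5xVAS and 970 in GD0.5. All 908 of the first overlapped a GD0.5 peak, and 968 of the 970 overlapped a GD5.5xVAS peak. A partner that also reached a −log10 q of 2 was found for 729 of the 908 (80.3%) and for 734 of the 970 (75.7%). Peaks at that limit were also far wider, with a median of 24.2 kb in GD5.5xVAS and 21.6 kb in GD0.5. Over all peaks the medians were 1555 and 1458 bases. A wide peak is likelier to share a base with the other list wherever it lies, and the part of width in these shares was not tested.

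**Figure D1:**
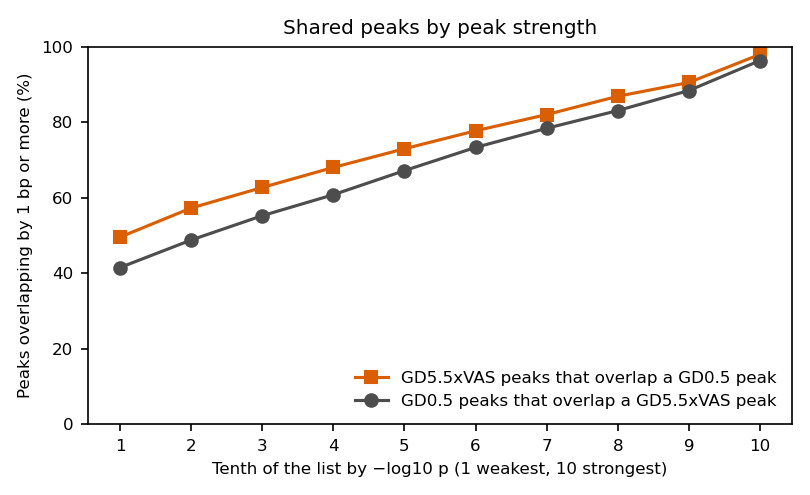
Percent of the peaks of each list that overlap a peak of the other list by at least 1 base (y axis), in 10 equal parts of the list from the weakest to the strongest −log10 p (x axis). In GD5.5xVAS the share goes from 49.6% to 98.0% and in GD0.5 from 41.5% to 96.4%.

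Coverage is used here for the percent of a gene's span, with 2 kb added on either side, that lies inside peaks. A gene was called gained or lost when its coverage in GD5.5xVAS was at least 50 percentage points above or below that in GD0.5. Of 21631 protein-coding genes, 59 were gained (0.273% of genes) and 59 were lost (0.273%). The median difference over all genes was 0, since 10531 genes were at 0 in both lists. Coverage was higher in GD5.5xVAS by any amount in 24.4% of all genes and lower in 22.0%. At a limit of 25 points, 419 genes were higher (1.94%) and 390 lower (1.8%). A further 1661 genes were covered over at least 90% in both. The 59 gained genes had a median coverage of 19.1% in GD0.5 and 80.4% in GD5.5xVAS, and stood at 73.1% after natural mating and 74.2% after progesterone. The 59 lost genes had a median of 72.9% in GD0.5 and 6.33% in GD5.5xVAS, with 27.9% after natural mating and 12.8% after progesterone. The limit of 50 points lies within a run of close values. The gained gene nearest to it, Olfr139, differed by 50.2 points and the nearest gene outside, Siah3, by 49.9. Among the lost genes Cdx1 lay nearest inside, at -50.08 points, followed by Hbb-bh2 at -50.4. The metallothionein gene Mt1 lay just outside, at -49.8.

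Sequences upstream of 5 starts are shown first, for 3 genes covered in GD5.5xVAS and 2 genes covered in GD0.5, because the peaks named below lie over them. Each holds the 250 bases before the RefSeq start of the gene (194 for Jph2, where the annotated span begins 56 bases earlier), read 5′ to 3′ along the gene from RefSeq, build GRCm38.p6, which shares its coordinates with mm10. Capitals mark CG dinucleotides. Jph2 lies at chr2:163398050-163398243 on the minus strand, Inhbb at chr1:119422249-119422498 on the minus strand, Car9 at chr4:43506776-43507025 on the plus strand, Ccl12 at chr11:82101595-82101844 on the plus strand and Foxl2 at chr9:98955357-98955606 on the plus strand.
Jph2: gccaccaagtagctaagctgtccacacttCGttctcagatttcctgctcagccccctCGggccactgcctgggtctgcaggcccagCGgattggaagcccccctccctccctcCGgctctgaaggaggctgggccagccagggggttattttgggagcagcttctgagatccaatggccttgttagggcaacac
Inhbb: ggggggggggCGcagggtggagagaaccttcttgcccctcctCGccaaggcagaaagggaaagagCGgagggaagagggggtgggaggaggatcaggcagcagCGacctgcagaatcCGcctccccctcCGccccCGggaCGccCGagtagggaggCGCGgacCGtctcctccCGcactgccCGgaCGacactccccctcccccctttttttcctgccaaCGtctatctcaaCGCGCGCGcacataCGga
Car9: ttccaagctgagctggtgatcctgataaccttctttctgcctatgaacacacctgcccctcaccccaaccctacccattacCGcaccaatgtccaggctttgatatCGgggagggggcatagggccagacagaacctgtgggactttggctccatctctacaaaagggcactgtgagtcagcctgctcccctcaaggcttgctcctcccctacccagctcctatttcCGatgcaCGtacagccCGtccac
Ccl12: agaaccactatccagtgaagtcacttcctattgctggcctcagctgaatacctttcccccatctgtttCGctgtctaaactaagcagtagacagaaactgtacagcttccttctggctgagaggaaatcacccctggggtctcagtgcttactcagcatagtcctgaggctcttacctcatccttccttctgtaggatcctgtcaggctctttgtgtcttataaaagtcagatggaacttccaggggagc
Foxl2: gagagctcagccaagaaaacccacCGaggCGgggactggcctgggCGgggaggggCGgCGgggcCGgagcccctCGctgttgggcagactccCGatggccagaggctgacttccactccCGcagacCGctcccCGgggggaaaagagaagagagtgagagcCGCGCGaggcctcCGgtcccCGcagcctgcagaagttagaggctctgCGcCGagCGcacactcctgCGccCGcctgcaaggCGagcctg

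These starts differ widely in CG content. The printed bases hold 21 CG dinucleotides at Inhbb and 22 at Foxl2, against 4 at Jph2, 5 at Car9 and 1 at Ccl12. Over the 250 bases before all 17274 starts in the RefSeq table, the median was 10 CG, with quartiles of 3 and 19. When coverage was taken over the 4 kb centred on the start, 193 starts were gained by at least 50 points (1.12%) and 197 were lost (1.14%). The gained starts had a median of 6 CG and the lost starts a median of 3, beside 6 for the 2802 starts at 90% or more in both lists and 13 for the 9792 starts at 0 in both. The TATA motif TATAAA, searched on both strands, was present before 12.5% of all starts, 14.0% of gained starts and 18.3% of lost starts. Of the 5 genes shown, Ccl12 held it. The CArG box, the serum response factor motif found at many muscle genes, was searched in its strict form, which reads the same on both strands and can share bases with the TATA motif. It was present before 1.41% of all starts, 0.518% of gained starts and 1.02% of lost starts, and in none of the 5 shown.

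Genes of the smooth muscle contractile apparatus were the list with the highest share of gained members. Of its 26 members 3 were gained (11.5%, against 0.273% of all genes) and 0 were lost, 12 had higher coverage, 2 lower, and 12 were at 0 in both lists. The mean coverage of the list was 14.9% in GD0.5, 23.6% in GD5.5xVAS, 22.9% after natural mating and 24.4% after progesterone, with a median difference of 0, the same as over all genes. At equal covered length, each list keeps its strongest peaks up to the same total. That total was 544 Mb, 80% of the shortest of the 4 lists. It left 65009 of the 167482 GD0.5 peaks and 54359 of the 146600 GD5.5xVAS peaks, so the weaker peaks of both drop out. The mean difference of the 26 genes was then 5.31 points in place of 8.70. Of them 3 were gained and 1 lost, beside 133 gained and 136 lost of all 21631 genes. With flanks of 5 kb 2 of the 26 were gained, beside 35 of all 21631 genes, since Lmod1 then differed by 46.2 points.

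Acta2 (chr19:34240336-34255585, mm10), which encodes smooth muscle alpha-actin, had a coverage of 0% in GD0.5, 63.4% in GD5.5xVAS, 55.5% after natural mating and 63.1% after progesterone. GD0.5 stood apart from the other 3 lists. The GD5.5xVAS peak over it ran from -7.20 kb to 9.99 kb relative to the start, with an authors' fold of 1.20 and a −log10 p of 0.941. Jph2 (chr2:163336242-163398049), which encodes junctophilin 2, a protein that ties the plasma membrane to the calcium store in muscle, had 3.03% in GD0.5, 58.4% in GD5.5xVAS, 44.5% after natural mating and 57.0% after progesterone. Its start lay wholly inside peaks in the last 3 lists and wholly outside them in GD0.5. Lmod1 (chr1:135324813-135368065), the gene of leiomodin 1, which nucleates actin filaments in smooth muscle, had 24.0%, 76.0%, 76.8% and 87.6% in the same order of lists. Actg2, the enteric smooth muscle actin, was under the limit, with 71.1% in GD0.5 and 97% in GD5.5xVAS. Other central genes of this programme had little or no coverage in either list. Tagln, Des, Myl9, Smtn, Cald1 and Srf were at 0% in both, and Myh11, the smooth muscle myosin heavy chain, went from 0% to 1.87%. The digested tissue includes smooth muscle, and in pooled cells a mark carried by more of the cells and more mark per cell cannot be told apart.

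Among genes of uterine contraction and labour, 0 of 47 were gained and 0 lost. Their mean coverage was 29.4% in GD0.5 and 31.6% in GD5.5xVAS, and the mean difference turned to -0.122 points at equal covered length. The members with the largest differences included Ptgis, which makes prostacyclin, at 17.1% in GD0.5, 57.8% in GD5.5xVAS, 57.4% after natural mating and 60.4% after progesterone. Akr1c18, whose product inactivates progesterone, differed the other way, at 62.0%, 23.0%, 31.6% and 29.96%. Ednrb, an endothelin receptor, had 35.1% in GD0.5 and 2.36% in GD5.5xVAS. The oxytocin receptor gene Oxtr had 9.31% and 27.8%, and Gja1, the gap junction protein that couples uterine muscle cells, 51.5% and 30.1%. The difference at Oxtr turned to -0.44 points at equal covered length, and that at Gja1 was -39.7.

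**Figure D2:**
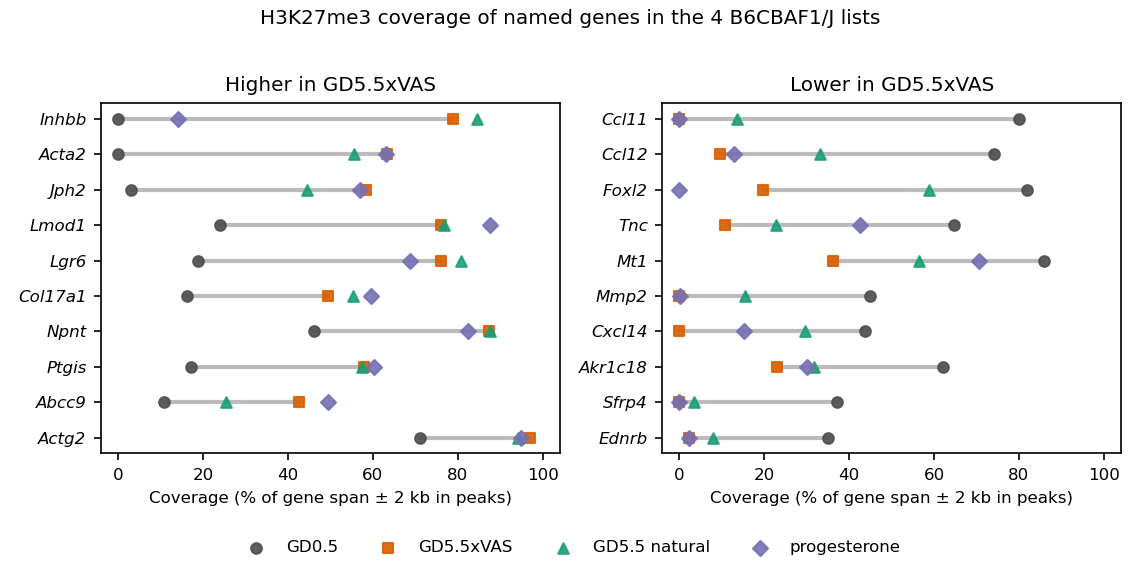
Coverage (percent inside peaks of the gene span and its 2-kb flanks, x axis) of 10 genes with higher and 10 genes with lower coverage in GD5.5xVAS than in GD0.5. Each point is 1 pooled list and the grey line joins GD0.5 to GD5.5xVAS; for Acta2 the points stand at 0% in GD0.5 and 63.4% in GD5.5xVAS, and for Ccl11 at 80.03% and 0%.

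Ccl11 and Ccl12, neighbouring chemokine genes on chromosome 11, were lost. Ccl11 (chr11:82057832-82062955), the eosinophil attractant eotaxin, had a coverage of 80.03% in GD0.5, 0% in GD5.5xVAS, 13.4% after natural mating and 0% after progesterone. Ccl12 (chr11:82101845-82103399), a monocyte attractant, had 74.2%, 9.54%, 33.2% and 12.9%. Both were high in GD0.5 alone of the 4 lists. Their neighbours Ccl7 and Ccl8 had 23.0% and 40.4% in GD0.5, and 0% and 14.9% in GD5.5xVAS, while Ccl2 was at 0% in all 4 lists. These genes lie close together and are not counted as separate observations, though the GD0.5 peak over the Ccl12 start reaches neither Ccl11 nor Ccl8. In GD0.5 the peak over the Ccl12 start ran from -15.8 kb to 1.65 kb, and in GD5.5xVAS the peaks in that stretch were short, the nearest ending 0.248 kb before the start.

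Over the whole list of 46 chemokines and inflammatory mediators, 0 were gained and 2 lost (4.35%, against 0.273% of all genes), 15 were higher and 16 lower, with a mean of 57.2% in GD0.5 and 54.0% in GD5.5xVAS and a median difference of 0. Cxcl14, a chemokine made by many epithelia and stromal cells, had 43.7% and 0%. In the other direction Ccl20, which attracts cells that bear Ccr6, had 68.1% and 100%, and Il6 had 45.6% and 66.9%. Cxcl14 differed by -25.98 points at equal covered length, and Il6 turned, at -33.4 points. Cxcl1, Cxcl2, Cxcl3, Cxcl13 and Tnf were at 100% in all 4 lists. None of the 22 chemokine receptor genes was gained or lost.

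**Figure D3:**
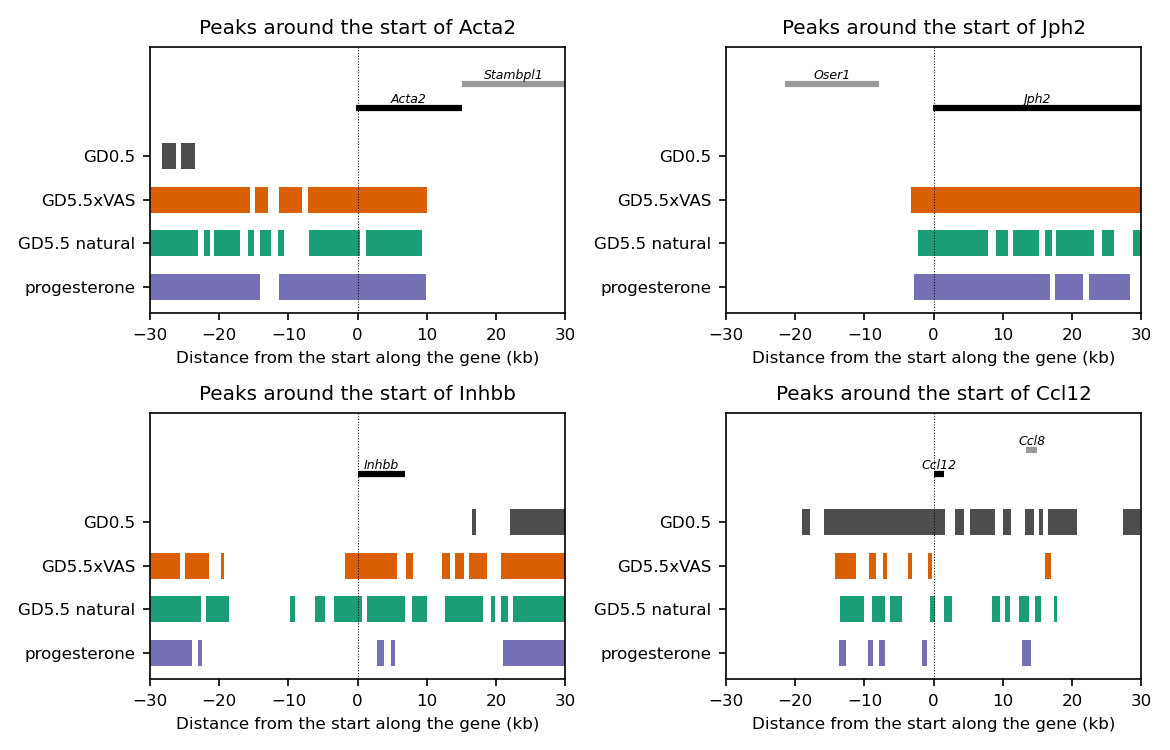
Peaks of the 4 pooled lists within 30 kb of the starts of Acta2, Jph2, Inhbb and Ccl12, by distance from the start along the gene (x axis, kb). Coloured blocks are peaks, 1 row per list, and bars above are gene spans; over the Ccl12 start the GD0.5 peak ends at 1.65 kb, and at Acta2 GD0.5 has no peak over the gene.

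Genes of the progesterone and oestrogen response were not gained or lost (0 of 40 each way). The receptor genes Pgr and Esr1 were at 0% in all 4 lists, as were Nr2f2 and Hand2, which act below the progesterone receptor in the stroma. Ihh, the hedgehog ligand that the epithelium makes under progesterone, was at 100% in all 4. Mt1 had 85.9% in GD0.5, 36.1% in GD5.5xVAS, 56.4% after natural mating and 70.6% after progesterone. Pgrmc1, a membrane-associated progesterone-binding protein, had 33.6% and 66.6%, but at equal covered length the difference was -25.2 points. Fkbp5, a co-chaperone of steroid receptors, had 28.04% and 48.4%, with a difference of 9.78 points at equal covered length.

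Among 46 genes of decidualization, the change of stromal fibroblasts into decidual cells, 1 was gained (2.17%, against 0.273% of all genes) and 0 lost. The gained gene was Inhbb (chr1:119415463-119422248), the beta-B subunit of activin and inhibin. Its coverage was 0% in GD0.5, 78.9% in GD5.5xVAS, 84.6% after natural mating and 14.0% after progesterone. It was covered in both GD5.5 lists, and the progesterone list lay near GD0.5. Follistatin, encoded by Fst, which binds activin, had 100% in GD0.5, 75.4% in GD5.5xVAS, 100% after natural mating and 78.2% after progesterone. Bmp2, a ligand needed for decidualization, had 23.7%, 0%, 3.56% and 0.102%, and at equal covered length its difference was 0. Wnt4 had 19.5% in GD0.5 and 4.99% in GD5.5xVAS, and Hoxa10, Hoxa11, Foxo1 and Cebpb held no peak in any list.

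In the wider list of 98 Wnt, BMP, TGF-beta, FGF and hedgehog genes, 2 were gained (2.04%, against 0.273% of all genes) and 0 lost, with means of 57.1% and 57.5%. The second gained gene was Lgr6 (chr1:134983300-135105374), an R-spondin receptor, at 18.9% in GD0.5, 76.0% in GD5.5xVAS, 80.7% after natural mating and 68.8% after progesterone. The Wnt antagonists Sfrp4 and Sfrp2 differed the other way. Sfrp4 had 37.1% in GD0.5 and 0% in GD5.5xVAS, and Sfrp2 had 41.8% and 10.3%. These differences were 0 at Sfrp4 and -17.99 points at Sfrp2 at equal covered length.

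Of 69 matrix and protease genes, 0 were gained and 1 was lost (1.45%, against 0.273% of all genes), and the mean was 25.03% in GD0.5 and 25.01% in GD5.5xVAS. The lost gene was Tnc (chr4:63959785-64047015), tenascin C, a matrix protein of remodelling tissue, at 64.7% in GD0.5, 10.7% in GD5.5xVAS, 22.7% after natural mating and 42.5% after progesterone. At equal covered length Tnc differed by -45.1 points. Mmp2, a gelatinase made by stromal cells, had 44.8%, 0%, 15.5% and 0.0498%. Npnt, nephronectin, had 46.0% in GD0.5 and 87.4% in GD5.5xVAS. Mmp2 differed by -26.1 points and Npnt by 17.8 at equal covered length.

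Developmental transcription factors outside the Hox clusters were the most heavily covered list, at a mean of 88.2% in GD0.5 and 84.8% in GD5.5xVAS over 135 genes, of which 0 were gained and 2 lost (1.48%, against 0.273% of all genes), 28 were higher and 50 lower. Foxl2 (chr9:98955607-98958126), a regulator of ovarian and uterine development, had 82.0% in GD0.5, 19.7% in GD5.5xVAS, 58.9% after natural mating and 0% after progesterone. The other lost gene, Cdx1, a regulator of the gut and the body axis, lay at the limit, at 92.5% and 42.4%. Irx3 was not lost, with 100% in GD0.5 and 57.9% in GD5.5xVAS, with 100% after natural mating. Among the 39 Hox genes 0 were gained or lost, with means of 49.4% and 52.9%. At equal covered length their mean difference turned to -0.735 points. Hoxb4 had 7.03% and 48.3%, and Hoxc12 had 87.5% and 57.6%. Hoxb4 differed by 9.41 points and Hoxc12 by -45.4 at equal covered length.

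Genes that write, read and erase the mark had a lower mean coverage than all genes. The 30 Polycomb subunit and demethylase genes had means of 13.4% and 13.8%, against 23.8% and 24.0%, with 0 gained and 0 lost. Of the 30, 16 were at 0% in both lists, beside 48.7% of all genes. Bmi1 had 61.8% in GD0.5 and 65.6% in GD5.5xVAS, and Cbx7 had 47.4% and 52.2%. Ezh2 was at 0% in all 4 lists. Kdm6b was at 0% in GD0.5 and GD5.5xVAS and at 3.45% after progesterone. Phc2, a subunit of Polycomb repressive complex 1, had 31.8% in GD0.5 and 0.599% in GD5.5xVAS, and Cbx8 had 32.3% and 61.6%. Phc2 differed by -16.02 points and Cbx8 by 51.1 at equal covered length.

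Other named gains lay outside these lists. Pla2g3 (chr11:3488158-3499346), a secreted phospholipase A2, had 0% in GD0.5, 87.9% in GD5.5xVAS, 86.4% after natural mating and 89.3% after progesterone. Its span overlaps that of Inpp5j, an inositol phosphatase, which had 14.6% and 91.9%, so the same peaks count for both. Car9 (chr4:43507026-43513729), the hypoxia-inducible carbonic anhydrase, had 0%, 59.0%, 56.6% and 73.9%. The Car9 span overlaps that of Arhgef39, also gained, at 0% in GD0.5 and 65.7% in GD5.5xVAS, and their strongest GD5.5xVAS peak is the same. Slc2a4 (chr11:69942286-69948216), the insulin-responsive glucose transporter, had 14.9% in GD0.5 and 100% in the other 3 lists. Spint2, a serine protease inhibitor, had 24.6% in GD0.5 and 88.4% in GD5.5xVAS, Neurl1b, an E3 ligase of the Notch pathway, 19.1% and 87.8%, and Stbd1, which binds glycogen, 20.6% and 80.4%. The calmodulin-like Calm5 and BC024139 complete the 12 named gains. These were taken from the genes that held 50 points as deposited, at equal covered length and with flanks of 5 kb, ranked by the smallest of the 3 differences, with predicted genes passed over and at most 2 per family.

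Losses named by the same rule included S1pr3, a sphingosine 1-phosphate receptor, at 73.2% in GD0.5, 13.9% in GD5.5xVAS, 66.3% after natural mating and 25.6% after progesterone. Gse1 (chr8:120228501-120581383), a subunit of a co-repressor complex, had 67.1%, 7.93%, 39.7% and 7.86% over a long span. Several others were sensory receptors, such as Olfr917, at 71.3% and 0%, Taar7d, at 100% and 41.9%, and Vmn1r50, at 80.8% and 25.8%. Olfactory, vomeronasal, taste and trace amine-associated receptors made up 20 of the 59 lost genes (33.9%) and 11 of the 59 gained genes (18.6%), beside 1517 of all 21631 genes (7.01%). Of these, 6 of the 20 and 5 of the 11 kept their call at equal covered length. Of the 1106 olfactory receptor genes 10 were gained (0.904%) and 12 lost (1.08%), against 0.273% of all genes each way. Of 353 vomeronasal receptors 0 were gained and 4 lost (1.13%), and of 35 bitter taste receptors 0 and 2 (5.71%). Both taste receptors, Tas2r140 and Tas2r124, had a difference of 0 at equal covered length, as did the vomeronasal Vmn1r46. Others kept their call there, with -80.8 points at Vmn1r50, -57.9 at Vmn1r222 and -100 at Taar7d. Whether gene length bears on these shares was not tested. Of the lost genes 44 were shorter than 5 kb and of the gained genes 25, beside 22.4% of all genes.

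The peaks behind these differences were weak by the authors' own values. Only 2 gained genes and 1 lost gene had a peak that reached a −log10 q of 2 in either list. The strongest peak at a gained gene in GD5.5xVAS had a median fold of 1.27, and that at a lost gene in GD0.5 a median fold of 1.17. At Foxl2 the strongest GD0.5 peak had a fold of 1.44, and at Lmod1 the strongest GD5.5xVAS peak had 1.53. Each was above the strongest peak of the other list, but peak strength did not follow the call at every gene. At the gained Slc2a4 the strongest peak had a fold of 2.44 in GD0.5 and 1.86 in GD5.5xVAS. The gained Lgr6 had 1.57 and 1.48 in the same order, and the gained Jph2 had 1.28 and 1.25. At the lost Cdx1 the folds were 1.34 in GD0.5 and 1.46 in GD5.5xVAS.

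The cell type label and other cell types were checked from the same coverage. Of 20 fibroblast genes, 16 were at 0% in both lists, beside 48.7% of all genes, and 0 were gained or lost. Those at 0% included Pdgfrb, Col1a1, Col1a2, Col3a1, Dcn, Lum, Vim and Thy1. Other members were covered, with Vcam1 at 75.3% in GD0.5 and 88.4% in GD5.5xVAS, Fap at 51.7% and 41.3%, and Pdpn at 11.4% and 25.9%. Pdgfra itself had 38.8% in GD0.5 and 30.5% in GD5.5xVAS, and its start was inside peaks in both. The epithelial, endothelial, immune and trophoblast lists were more covered. The 25 epithelial markers had means of 78.8% and 82.0%, with 15 members higher in GD5.5xVAS and 3 lower. The means were 52.0% and 53.5% for 20 endothelial markers, 65.1% and 69.8% for 26 immune markers, and 53.2% and 53.4% for 18 trophoblast markers. The immune markers with the largest differences were Ncr1, a natural killer cell receptor, at 40.4% and 80.5%, and Cd8a at 66.0% and 99.6%. At equal covered length Ncr1 differed by -6.74 points. None of these markers was gained or lost, and their part in the differences above was not tested. The 25 broadly active genes had means of 4.45% and 5.4%. The smooth muscle contractile list also had low means, 14.9% and 23.6%, so this check does not tell fibroblasts from smooth muscle. Across all 31 lists 22 had no gained or lost member.

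Differences over the genome were counted in 10-kb bins. Of 263056 bins, 2581 were gained by at least 50 points (0.981%) and 2273 were lost (0.864%). The gained bins had a median of 13.9% in GD0.5, 82.7% in GD5.5xVAS, 68.3% after natural mating and 81.1% after progesterone, and the lost bins had 75.8%, 10.4%, 28.4% and 11.5%. Most changed bins stood alone. There were 1912 runs of gained bins, of which 1475 were single bins and 140 held 3 or more, and 1757 runs of lost bins, of which 1427 were single and 97 held 3 or more. Gained bins overlapped a protein-coding gene in 48.2% of cases and lost bins in 41.7%, beside 44.7% of all bins.

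The longest runs are given with the protein-coding genes they overlap. Ebf1 on chromosome 11, a transcription factor of stromal, fat and B cells, held the longest lost run, chr11:44710001-44850000, where coverage was 78.8% in GD0.5, 1.49% in GD5.5xVAS, 9.13% after natural mating and 0% after progesterone. A further lost run of 80 kb, chr11:44610001-44690000, covers the first part of the Ebf1 span. Gse1 held a lost run of 120 kb, at 83.3% and 4.02%, with 53.0% after natural mating, and Robo1, an axon guidance receptor, held one of 90 kb, at 69.8% and 2.12%. The run chr4:128610001-128690000, over Zscan20, Tlr12 and Phc2, had 71.9% and 5.17%. Among gained runs, 80 kb of Nfib (chr4:82400001-82480000), a nuclear factor I transcription factor, had 5.13% in GD0.5, 89.3% in GD5.5xVAS, 87.0% after natural mating and 81.3% after progesterone. A stretch of equal length that overlaps none of the protein-coding genes used here, chr6:69840001-69920000, had 10.1% and 90.5%. Pdlim5, a cytoskeletal adaptor, and Thsd4, a matrix protein, held runs of 70 kb, and Adamtsl3, another matrix protein, one of 60 kb.

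The shares of changed bins differed between chromosomes. Lost bins made up 0.659% to 1.58% of the bins of each autosome, with the highest share on chromosome 8, and gained bins made up 0.592% to 1.38%, with the highest share on chromosome 2. The X was the most covered chromosome, as 58.4% of its bin length lay in peaks in GD0.5 and 59.4% in GD5.5xVAS, against 20.3% to 30.7% of the autosomes in GD5.5xVAS. It had the lowest shares of changed bins, 0.240% gained and 0.176% lost. Chromosome 16 had the largest fall in coverage, from 23.96% to 22.1%.

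**Figure D4:**
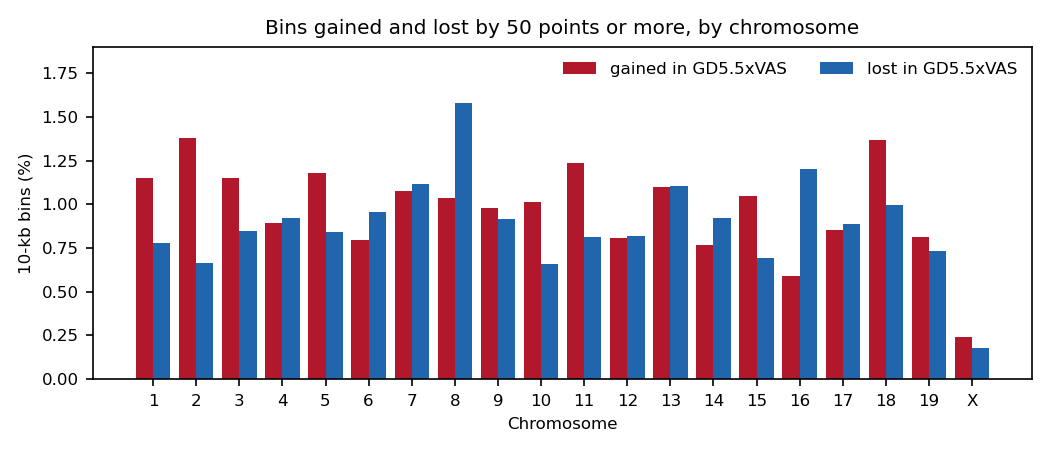
Percent of the 10-kb bins of each chromosome (y axis) that were gained or lost by at least 50 points in GD5.5xVAS against GD0.5. The X has 0.240% gained and 0.176% lost, below each of the 19 autosomes, and chromosome 8 has the highest lost share, 1.58%.

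The 4 lists were also set against each other in pairs. GD5.5xVAS and GD0.5 differed by at least 50 points in 4854 bins and 118 genes. Natural mating and GD0.5 differed in 3921 bins and 118 genes, and progesterone and GD0.5 in 6934 bins and 230 genes. These 3 pairs share the GD0.5 list, so they are not separate evidence. Between the 2 GD5.5 lists, natural mating and GD5.5xVAS, 1051 bins and 42 genes differed, and between progesterone and GD5.5xVAS 1137 bins and 69 genes. At equal covered length the counts were 10400 bins for GD5.5xVAS against GD0.5 and 6315 for natural mating against GD5.5xVAS. The natural mating samples came from the tissue between implantation sites and the GD5.5xVAS samples from the uterus, so the presence of embryos and the site sampled cannot be told apart in that pair. In the GD5.5xVAS and GD0.5 pair the day and the kind of male cannot be told apart.

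**Figure D5:**
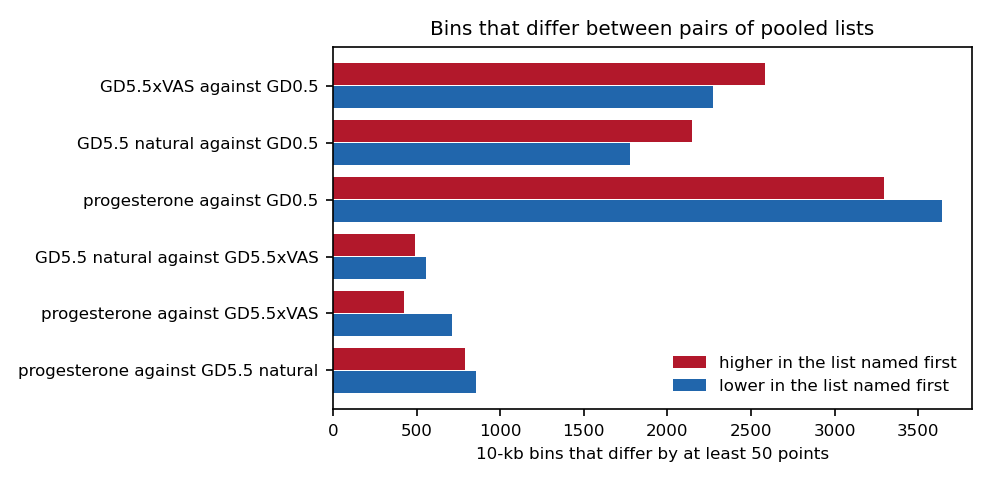
Number of 10-kb bins (x axis) that differ by at least 50 points in each of the 6 pairs of pooled lists, split by direction. GD5.5xVAS against GD0.5 has 2581 bins higher and 2273 lower, and natural mating against GD5.5xVAS has 493 and 558.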

How the data were processed

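Fibroblasts of the uterus were profiled for H3K27me3 by CUT&RUN. The submitters' processing notes name STAR 2.7.5c, samtools 1.10, Picard, bedtools 2.29.1 and bedGraphToBigWig 2.8, macs2 2.2.7.1 for the peaks, and the build mm10. The deposited lists pool 3 samples each and give for each peak a score, a fold (a ratio to background), a −log10 p and a −log10 q, as the authors' peak caller wrote them. The score was not used. Sequencing depth is not stated in the labels or files.

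Peaks on chromosomes 1 to 19 and X were merged, and coverage was computed for RefSeq genes (GRCm38.p6) with python 3.11.15, numpy 2.4.6, pandas 2.3.3 and matplotlib 3.10.9. The coverage step was checked on simulated data. Named genes were up to 12 gains and 12 losses that held 50 points as deposited, at equal covered length and with 5-kb flanks, ranked by the smallest of the 3 differences, up to 4 members of each of 31 lists with the largest difference, 6 fixed genes, and the 5 longest runs of bins each way. Predicted genes were passed over and at most 2 named per family. Other members are given from the lists' full tables, and genes given for a result just inside or outside the limit by that position. The members, lists and rules were chosen with earlier results of these data known. Starts were matched for 17274 of 21631 genes. Alternatives covered peak strength, equal length, flanks, limits, bin size and joined peaks. Lists of the Kdm6b set, inputs and signal tracks were not used.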

Additional observations from a re-analysis of the deposited data

How the results depend on the processing

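No paired analysis was possible because each list pools its 3 samples and the 2 groups share no replicate numbers. For the same reason no sample could be left out in turn. The alternative with a fold of at least 3 was not run, since it leaves 22 and 17 peaks.

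The counts of genes and bins depend on the settings. At equal covered length 133 genes were gained and 136 lost, with 5320 and 5080 bins. Of the 59 gained genes 38 were still gained there, and of the 59 lost genes 24. Other flanks gave 35 gained and 28 lost genes (5 kb) and 170 and 158 (none). A limit of 25 points gave 419 and 390 genes, and 11498 and 11938 bins. Peaks that reached a −log10 q of 2 gave 474 and 453 bins, with 74 and 85 genes. Joining peaks within 1 kb gave 86 gained and 109 lost genes. Bins of 50 kb gave 105 and 89, and bins of 5 kb gave 9027 and 8738. In alternatives added after the data were seen, windows of 2 kb on either side of the start gave 193 and 197, and genes of 5 kb or longer 34 and 15. The log2 ratio of covered length was -0.0104 as deposited, 0.0289 with −log10 q of at least 2 and -0.0159 on autosomes alone. With no flanks Tas2r124 differed by 38.1 points in place of a loss, and at its start Gse1 differed by 1.30 points. Of 32 named genes past 50 points, 25 kept them at equal covered length, 23 with 5-kb flanks and 1 with −log10 q of at least 2. The largest gains and losses among them were named for holding 50 points at equal covered length and with 5-kb flanks. The first 2 counts were thus partly fixed in advance and give no measure of stability. With 5-kb flanks 31 of the 59 gained and 22 of the 59 lost genes kept their call. The mean difference of a gene list changed sign in 8 of the 31 lists at equal covered length. With −log10 q of at least 2 it changed sign in 10, and with 5-kb flanks in 2. Equal covered length keeps or drops whole peaks, so a gene can jump. The cause of the other moves was not tested.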

Other observations

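Further genes past 50 points, chosen after their values were seen, lie outside the lists above. The acute-phase genes Saa1, Saa2 and Saa4, which are neighbours on chromosome 7, were all lost. Saa1 had a coverage of 71.6% in GD0.5, 0% in GD5.5xVAS, 26.1% after natural mating and 0% after progesterone, Saa2 had 53.3%, 0%, 32.1% and 0%, and Saa4 had 72.9%, 14.7%, 53.3% and 24.2%. Saa1 held no difference at equal covered length, where both lists were at the same value, and Saa4 differed there by -42.4 points. Other lost immune genes were C5ar1, the complement C5a receptor, at 66.8% in GD0.5 and 4.78% in GD5.5xVAS, Il27, at 73.4% and 15.7%, and Tlr12, at 77.2% and 0%. Prdm1, a transcriptional repressor, had 74.6% and 11.997%, and its start went from 100% to 0%. Il27 differed by -47.0 points, Prdm1 by -43.9 and Tlr12 by -8.61 at equal covered length, all under the limit.

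Gained genes chosen in the same way included Id2, an inhibitor of helix-loop-helix factors, at 0% in GD0.5, 74.2% in GD5.5xVAS, 70.7% after natural mating and 73.2% after progesterone. Nqo1, a quinone reductase of the oxidative stress response, had 0%, 68.3%, 73.8% and 80.1%. Itga7, the laminin receptor subunit of muscle, had 29.7%, 85.1%, 70.3% and 89.6%. Id2 differed by 21.9 points and Itga7 by 38.7 at equal covered length, both under the limit. Among imprinted genes, of which 0 of 49 were gained or lost, Slc38a4 had 22.0% in GD0.5 and 66.1% in GD5.5xVAS, and Ins2 had 33.0% and 77.7%, with differences of 22.0 and 16.7 points at equal covered length. Their mean was 34.98% and 39.6%.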
